A study of Homo sapiens with 24 samples.

Results

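The 9 genes described here encode integrin subunits, laminin chains and the collagen of the hemidesmosome, and were taken from the deposited expression table by symbol. They are ITGB1, ITGA2, ITGA3, ITGA6, ITGB4, COL17A1, LAMA3, LAMB3 and LAMA5, and all 9 of them were found among the 58381 gene IDs and passed the filter on low values, which left 14228 genes for testing. The cells were HaCaT, an immortalised, non-malignant human keratinocyte line. Per the labels, 3 clonal lines had been transduced with an empty vector and 3 with hsa-miR-186, and each was kept without or with 100 nM inorganic arsenic (iAs). RNA was taken at weeks 12 and 29, so that construct, dose and week made 8 groups of 3 libraries: vector at 0 nM, vector at 100 nM, miR-186 at 0 nM and miR-186 at 100 nM, each at both weeks. All groups share the HaCaT background, the transduction and the clonal selection, and each replicate is called biologically independent in the labels. The labels give no promoter for the microRNA and do not say which clone a replicate number stands for, so p-values measure the spread between these libraries. The level of hsa-miR-186 itself was not analysed here.

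Integrins are heterodimers of an alpha and a beta chain that hold cells to the extracellular matrix. In basal keratinocytes the ITGA6 and ITGB4 chains pair in hemidesmosomes, where ITGB4 and the transmembrane collagen XVII (COL17A1) are tied to keratin filaments by plectin (PLEC) and the epithelial form of dystonin (DST). ITGB1 pairs with ITGA2, a collagen receptor, and with ITGA3, a laminin receptor, in adhesions coupled to actin. The main laminin of the epidermal basement membrane contains the chains LAMA3 and LAMB3, and LAMA5 is the alpha chain of another basement membrane laminin. Loss of the hemidesmosome chains or of this laminin causes blistering of skin.

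Levels are FPKM (fragments scaled to transcript length and library size), so they are scaled to length and can be set beside each other between genes. Changes are log2 differences ± standard error on log2(FPKM + 0.5), from 1 limma fit over the 8 groups, with Benjamini-Hochberg adjustment over the 14228 genes and a threshold of 0.05. A gene is said to rise or fall only where it passed that threshold. Basal keratinocyte markers (KRT5, KRT14, TP63, KRT15, DSG3 and SFN) were all measured in the tested set and summed to between 954 and 4578 FPKM per library, and the simple epithelial keratins KRT8, KRT18 and KRT19 to between 693 and 2216 FPKM. In the basal sum KRT5, KRT14 and KRT15 weighed most, with medians of 1032, 639 and 542 FPKM, beside 70.7 for TP63, 111 for DSG3 and 61.4 for SFN. The fibroblast genes COL1A2, COL3A1 and PDGFRA were below the filter, as was LORICRIN of the suprabasal markers, the endothelial genes PECAM1, VWF and KDR, the 6 leukocyte markers, and the melanocyte genes MLANA, TYR, DCT and SOX10. The other 4 suprabasal markers passed it, with medians of 74.3 FPKM for KRT10, 52.7 for IVL, 1.51 for KRT1 and 1.38 for FLG, and summed to between 72.5 and 610.2 FPKM. COL1A1, DCN, LUM, PMEL and CDH5 also passed it. DCN, LUM and CDH5 had medians of 0.874, 2.23 and 11.6 FPKM, and DCN and LUM reached 78 and 17.2 FPKM. The fibroblast markers summed to as much as 95.6 FPKM in miR-186 clones without iAs at week 29 and 41.5 FPKM at week 12, and their part in the results of these clones was not tested. In bulk RNA, fewer cells of a type and less RNA per cell cannot be told apart. Libraries also differed in how level depended on the GC content of a gene. This GC slope, the log2 deviation per 10 percentage points of GC, ran from -0.37 to 0.43 over the 24 libraries. Its group means at week 12 were -0.136 and 0.277 in vector clones at 0 and 100 nM, and 0.045 and 0.21 in miR-186 clones. At week 29 they were -0.044 and 0.044 in vector clones, and -0.261 and -0.135 in miR-186 clones. Each change below was therefore also computed after a GC correction, which takes a smooth curve of log2 level on gene GC content out of every library. In vector clones at week 12 the slopes ran from -0.204 to -0.077 without and 0.179 to 0.427 with iAs, without overlap. Where groups differ in slope, the correction cannot tell a technical slope from a change of the groups, and neither was tested. It shifts a gene by its GC content, also where that gene does not follow the slope. For all genes, the share without overlap was computed only before the correction.

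The beta chain ITGB1 (ENSG00000150093, chromosome 10, 32900319 to 33005792, minus strand, GRCh38 as for all positions of genes given here) was the most abundant integrin transcript by its median, at 180.4 FPKM over the 24 libraries. In vector clones its week 12 mean was 234 ± 6.89 FPKM (SD, n = 3) at 0 nM and 145 ± 4.5 FPKM at 100 nM, and its week 29 mean 174 ± 21 and 152 ± 16.7 FPKM. The miR-186 clones had 191 ± 13.6 and 145 ± 26.7 FPKM at the same doses in week 12, then 216 ± 21.9 and 184 ± 5.86 FPKM in week 29. Vector clones without iAs at week 12 had the highest mean and miR-186 clones with iAs at week 12 the lowest. Of the 7 steps between neighbouring group means in this order, 2 exceeded the SDs of both groups: miR-186 at 0 nM and week 29 over the same at week 12, and vector at 0 nM over 100 nM at week 29.

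The collagen-binding chain ITGA2 (ENSG00000164171, chromosome 5, 52989326 to 53094779, plus strand) had the lowest median of the 5 integrin chains, 63.6 FPKM. At week 12, vector clones averaged 60.6 ± 14.3 FPKM without and 45.1 ± 5.93 FPKM with iAs, and miR-186 clones 63.2 ± 7.18 and 56.6 ± 7.51 FPKM. By week 29 ITGA2 averaged 66.7 ± 14.3 and 64 ± 5.04 FPKM in vector clones, and 88.3 ± 5.47 and 72.3 ± 12.8 FPKM in miR-186 clones. The top group, miR-186 at 0 nM and week 29, exceeded its neighbour, miR-186 at 100 nM and week 29, by more than both SDs, as did miR-186 over vector clones with iAs at week 12 at the bottom of the order. The laminin-binding chain ITGA3 (ENSG00000005884, chromosome 17, 50055968 to 50090481, plus strand) had a median of 137 FPKM. Unexposed vector clones held 142 ± 6.77 FPKM of ITGA3 at week 12 and 133 ± 13.2 FPKM at week 29, and exposed ones 160.4 ± 42 and 140.1 ± 8.87 FPKM. For miR-186 clones these means were 112 ± 23 and 133 ± 18.8 FPKM unexposed, and 146 ± 8.91 and 123 ± 6.57 FPKM exposed. None of the 7 steps between neighbouring ITGA3 means exceeded both SDs, so the order of its groups is not resolved. The wide SD of vector clones with iAs at week 12 came from libraries at 206, 152 and 123 FPKM.

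ITGA6 (ENSG00000091409, chromosome 2, 172427354 to 172506282, plus strand), the alpha chain of the hemidesmosome integrin, had a median of 149.9 FPKM. In vector clones its week 12 mean was 201 ± 88.8 FPKM (SD, n = 3) at 0 nM and 177 ± 86.2 FPKM at 100 nM, and its week 29 mean 169 ± 40.9 and 153 ± 11.2 FPKM. The miR-186 clones had 156 ± 47.8 and 111 ± 4.66 FPKM at the same doses in week 12, then 149 ± 3.31 and 130.3 ± 38 FPKM in week 29. The libraries of vector clones at week 12 stood at 168, 302 and 134 FPKM without iAs, and at 173, 265 and 93.1 FPKM with it, as replicates 1, 2 and 3. Replicate 2 was thus the highest and replicate 3 the lowest at both doses, and the spread among these libraries was wider than any difference between group means. Its partner ITGB4 (ENSG00000132470, chromosome 17, 75721328 to 75757818, plus strand) had a median of 72.8 FPKM. At week 12, vector clones averaged 57 ± 8.46 FPKM without and 115 ± 30.7 FPKM with iAs, and miR-186 clones 77.3 ± 15.3 and 100.3 ± 23.7 FPKM. By week 29 ITGB4 averaged 72.1 ± 26.2 and 82.7 ± 44.4 FPKM in vector clones, and 45.6 ± 8.25 and 53.5 ± 19 FPKM in miR-186 clones. No step between neighbouring means of ITGA6 or ITGB4 exceeded both SDs. The ratio of ITGA6 to ITGB4 had a median of 2.21 and ran from 0.63 in replicate 3 of vector clones with iAs at week 12 to 6.11 in replicate 2 of vector clones without it at that week. These libraries had GC slopes of 0.427 and -0.204, and the ratio was not corrected for GC content.

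COL17A1 (ENSG00000065618, chromosome 10, 104031286 to 104085957, minus strand) had a median of 190.1 FPKM. Unexposed vector clones held 204 ± 5.24 FPKM of COL17A1 at week 12 and 207 ± 30.8 FPKM at week 29, and exposed ones 274 ± 22.1 and 233 ± 72.3 FPKM. For miR-186 clones these means were 126 ± 7.28 and 161 ± 50.8 FPKM unexposed, and 167 ± 17.2 and 184 ± 85.2 FPKM exposed. The means of the 4 vector groups ranked above those of all 4 miR-186 groups, but no step between neighbours exceeded both SDs. The plaque protein PLEC had a median of 13.7 FPKM, DST of 88.5 FPKM, and the tetraspanin CD151, which binds laminin-binding integrins, of 79.3 FPKM. DST had the opposite order of constructs, since its 4 miR-186 means (103 to 129 FPKM) all stood above its 4 vector means (57.1 to 83.5 FPKM).

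LAMA3 (ENSG00000053747, chromosome 18, 23689443 to 23956222, plus strand) had a median of 209 FPKM, the highest of the 9 genes. In vector clones its week 12 mean was 269 ± 107 FPKM (SD, n = 3) at 0 nM and 203 ± 42.8 FPKM at 100 nM, and its week 29 mean 179 ± 25.9 and 219 ± 8.76 FPKM. The miR-186 clones had 153 ± 72.9 and 157 ± 18.1 FPKM at the same doses in week 12, then 210.2 ± 28.1 and 207 ± 69.3 FPKM in week 29. LAMB3 (ENSG00000196878, chromosome 1, 209614870 to 209652466, minus strand), its beta partner, had a median of 188 FPKM. At week 12, vector clones averaged 197 ± 51.6 FPKM without and 293 ± 72.9 FPKM with iAs, and miR-186 clones 144 ± 2.47 and 165 ± 12.4 FPKM. By week 29 LAMB3 averaged 233 ± 43.6 and 245 ± 71.4 FPKM in vector clones, and 154 ± 59.8 and 192 ± 75.5 FPKM in miR-186 clones. LAMB3 had the same order of the 8 group means as COL17A1, from vector with iAs at week 12 down to miR-186 without iAs at week 12. Neither LAMA3 nor LAMB3 had a step between neighbours above both SDs.

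LAMA5 (ENSG00000130702, chromosome 20, 62307955 to 62367312, minus strand) was the least abundant of the 9, with a median of 20.1 FPKM, and varied most, by 4.84-fold between its lowest and highest library. Unexposed vector clones held 13.1 ± 4.3 FPKM of LAMA5 at week 12 and 18.6 ± 5.31 FPKM at week 29, and exposed ones 37 ± 2.14 and 23.3 ± 12.4 FPKM. For miR-186 clones these means were 23.1 ± 2.86 and 9.32 ± 0.55 FPKM unexposed, and 28.9 ± 3.02 and 10.6 ± 2.18 FPKM exposed. Vector clones with iAs at week 12 were at the top and miR-186 clones without iAs at week 29 at the bottom. Vector with iAs exceeded miR-186 with iAs at week 12 by more than both SDs, as did vector at 0 nM at week 29 over the same at week 12, and the other 5 steps did not. The 3′ end of LAMA5 shares 908 bases with ADRM1, a proteasome subunit gene on the opposite strand at a mean of 14.4 FPKM, and the strand setting of the counting is not given in the sources used here.

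**Figure D1:**
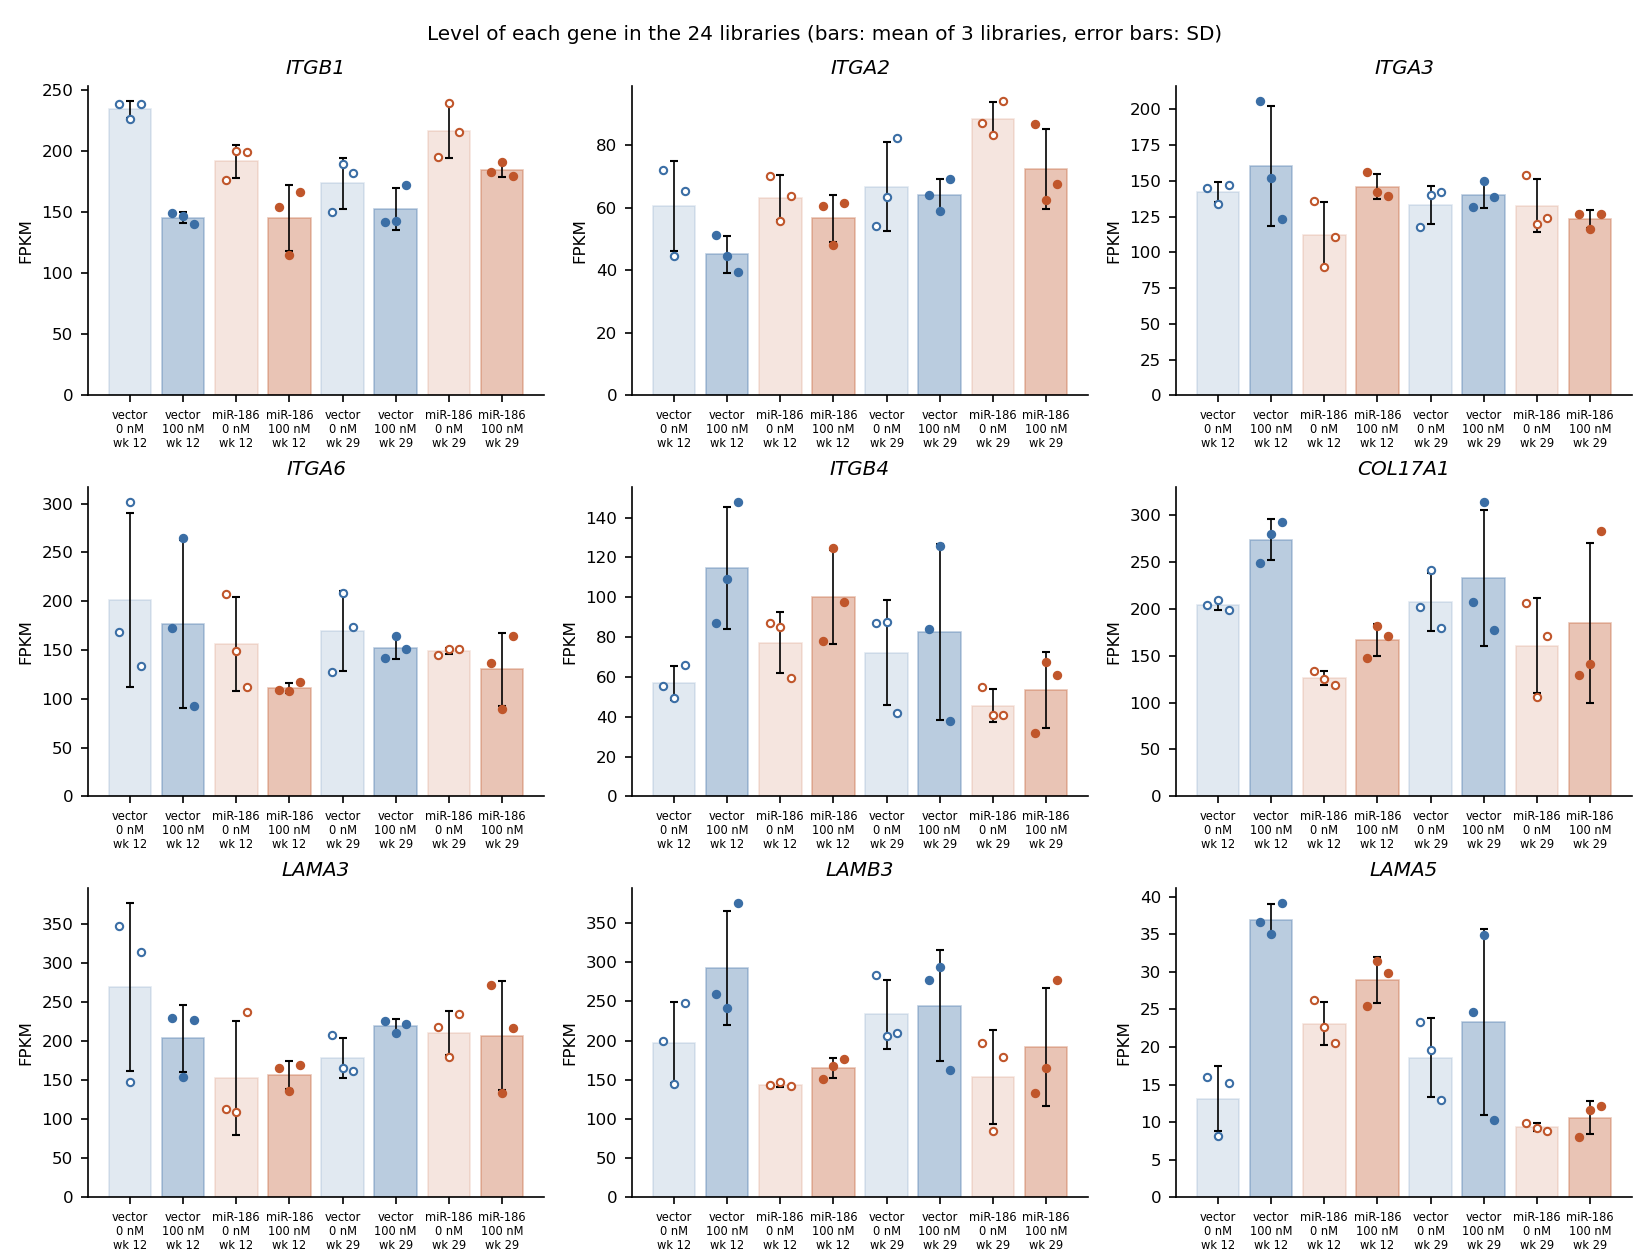
Level of each of the 9 genes in FPKM (vertical axis) in the 8 groups (horizontal axis). Points are libraries, bars are means of 3 libraries with SD, blue is vector, orange is miR-186, and filled points and darker bars are 100 nM iAs. LAMA5 runs from 8.1 to 39.2 FPKM, with all 6 miR-186 libraries of week 29 between 8.1 and 12.1 FPKM.

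With iAs, vector clones at week 12 had more LAMA5 and less ITGB1. LAMA5 stood at 16, 8.18 and 15.2 FPKM in the 3 libraries without iAs and at 36.7, 35 and 39.2 FPKM in those with it. Every exposed library was thus more than 2-fold above every unexposed one. LAMA5 rose by 1.52 ± 0.32 (adjusted p = 0.0422 by limma). ITGB1 stood at 238, 226 and 238 FPKM without iAs and at 149, 147 and 140.2 FPKM with it, again with no overlap. It fell by 0.69 ± 0.14 (adjusted p = 0.0411). These were 2 of 9 genes, where 1.38% of all genes tested were called. The libraries of ITGB4 and COL17A1 also did not overlap between the doses, both higher with iAs, which made 4 of 9 where 37.2% of all genes tested did not overlap. ITGB4 stood at 55.5, 49.4 and 66.1 FPKM without iAs and at 87.3, 109 and 148 FPKM with it, a log2 change of 0.98 ± 0.37 (adjusted p = 0.0977). COL17A1 stood at 204, 209 and 199 and at 249, 280.0 and 292 FPKM, a log2 change of 0.42 ± 0.26 (adjusted p = 0.277). The median log2 change of the 9 genes was 0.15, against 0.00 for all genes tested. An unadjusted p under 0.05 was seen in 4 of the 9, beside 29.3% of all genes. The summed simple epithelial keratins moved in the same comparison, from between 832 and 993 FPKM to between 1046 and 2216 FPKM, while the basal markers overlapped (2313 to 3402 and 2840 to 4578 FPKM), and their part in the result was not tested.

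The genes that changed lay at the ends of the range of base composition. The longest annotated transcripts are 66.4% GC in LAMA5 and 63.7% in ITGB4, but 40.0% in ITGB1 and 40.2% in ITGA2, and the median of genes tested is 47.9%. To show the contrast, the first 120 bases of the LAMA5 and ITGB1 coding sequences are printed in the GENCODE 29 annotation of GRCh38, with G and C in capitals.
LAMA5 coding start: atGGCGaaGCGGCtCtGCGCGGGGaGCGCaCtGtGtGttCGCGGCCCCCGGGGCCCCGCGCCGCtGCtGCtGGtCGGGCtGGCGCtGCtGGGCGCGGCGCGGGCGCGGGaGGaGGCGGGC
ITGB1 coding start: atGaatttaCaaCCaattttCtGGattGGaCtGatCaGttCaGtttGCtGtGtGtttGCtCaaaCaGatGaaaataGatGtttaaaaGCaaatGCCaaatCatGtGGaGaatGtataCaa
In this window LAMA5 has 98 G or C of 120 bases and ITGB1 has 40. LAMA3, which was not called, has 94, and ITGA6 and ITGB4, also not called, have 79 each. Over the whole coding sequence GC is 66.9% in LAMA5 and 41.2% in ITGB1, and 50.9% in LAMA3, 44.7% in ITGA6 and 63.3% in ITGB4.

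Over the 24 libraries the log2 level of ITGB4 had a Pearson r of 0.97 with the library GC slope, and that of LAMA5 an r of 0.92. The r was -0.77 for ITGA2 and -0.75 for ITGB1, 0.52 for LAMB3 and 0.41 for COL17A1, and between -0.32 and 0.12 for ITGA3, ITGA6 and LAMA3. Within vector and within miR-186 clones it was 0.97 and 0.98 for ITGB4, 0.95 and 0.89 for LAMA5, -0.63 and -0.93 for ITGA2, and -0.74 and -0.75 for ITGB1. For LAMB3, COL17A1 and LAMA3 it differed between the constructs in these libraries, at 0.89 and 0.20, 0.84 and 0.11, and 0.02 and -0.76, and that difference was not tested. Spearman's rho was 0.95, 0.93, -0.77 and -0.74 for ITGB4, LAMA5, ITGA2 and ITGB1, and without the 2 libraries farthest from the median slope their r was 0.97, 0.90, -0.69 and -0.78. The slope is computed from these same libraries, and 3.18% of genes tested had an absolute r of 0.9 or more, with a median of 0.45. ITGA3, at 61.3% GC, is close to ITGB4 and did not follow the slope. After the GC correction the change of LAMA5 with iAs in vector clones at week 12 was 0.61 ± 0.20 (adjusted p = 0.195), and its libraries overlapped. ITGB1 changed by -0.37 ± 0.11 (adjusted p = 0.172) after the correction, still without overlap. ITGB4 and COL17A1 changed by 0.20 ± 0.16 and 0.07 ± 0.23 (adjusted p = 0.621 and 0.935) and overlapped, and ITGA3 turned from 0.15 ± 0.17 to -0.52 ± 0.30 (adjusted p = 0.586 and 0.456). Neither LAMA5 nor ITGB1 passed the threshold when any 1 of the 6 libraries was left out (adjusted p = 0.0694 to 0.16 and 0.0694 to 0.15), with no filter on low values (0.0955 and 0.0902) or in a fit on only these groups (0.0712 for both). ADRM1 changed by 0.86 ± 0.43 (adjusted p = 0.186) in this comparison, and its part in the LAMA5 value was not tested.

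**Figure D2:**
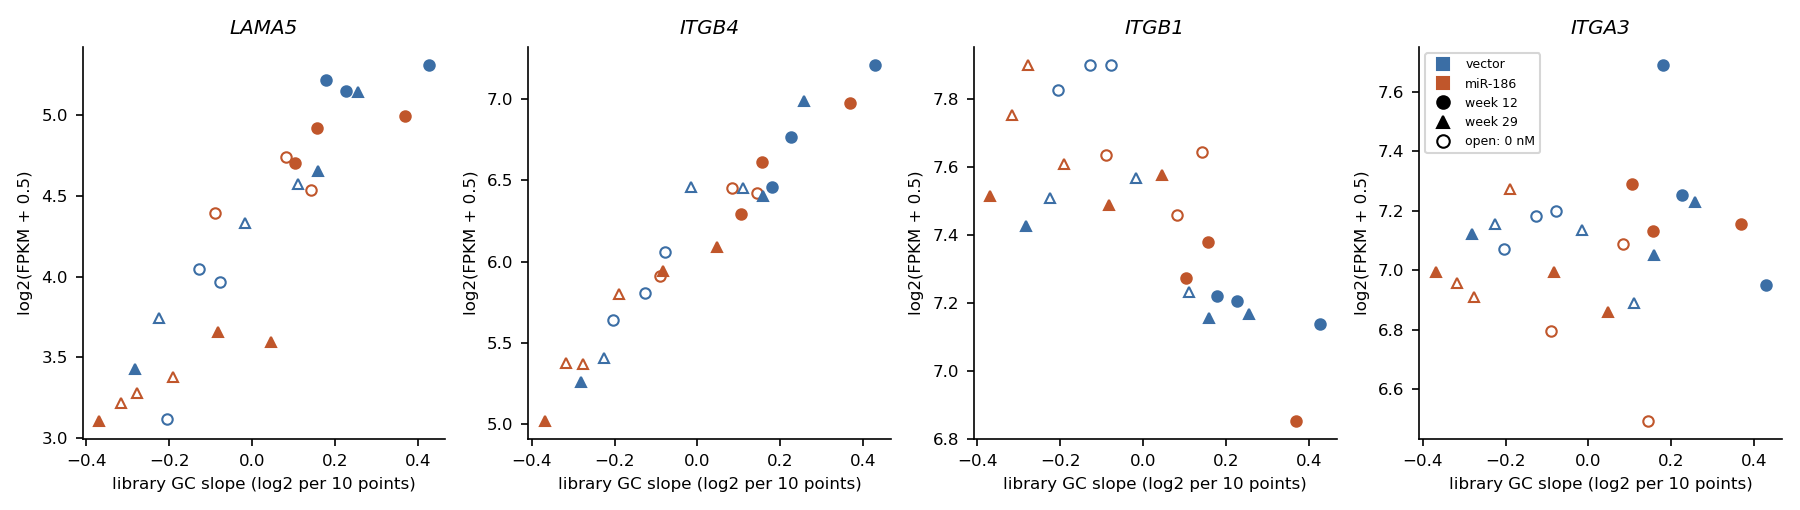
Level of LAMA5, ITGB4, ITGB1 and ITGA3 on the log2(FPKM + 0.5) scale (vertical axis) against the GC slope of the library (horizontal axis, log2 per 10 points of GC). Each of the 24 points is a library, blue for vector, orange for miR-186, circles for week 12, triangles for week 29, open for 0 nM. ITGB4 and LAMA5 climb with the slope (r = 0.97 and 0.92), ITGB1 descends (r = -0.75) and ITGA3 does neither (r = 0.12).

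In the other 3 comparisons of dose none of the 9 genes was called by limma, as was none of the 14228 genes (0% called). In vector clones at week 29, 0 of the 9 had an unadjusted p under 0.05, beside 3.9% of all genes. LAMA5 stood at 23.3, 19.6 and 12.9 FPKM without iAs and 24.7, 34.9 and 10.3 FPKM with it, with wide overlap (log2 change 0.19 ± 0.32). LAMA3 alone did not overlap, at 208, 166 and 161 against 226, 209.6 and 222 FPKM (log2 change 0.31 ± 0.31), which is 1 of 9 beside 9.9% of all genes, and it overlapped once GC content was corrected for. In miR-186 clones at week 12, 2 of the 9 had an unadjusted p under 0.05 beside 11% of all genes, and ITGB1, ITGA3, COL17A1 and LAMB3 did not overlap, 4 of 9 beside 17% of all genes. ITGB1 stood there at 176, 199.7 and 199 FPKM without iAs and 154, 115 and 166 FPKM with it (log2 change -0.41 ± 0.14, adjusted p = 0.348). COL17A1 stood at 134, 125 and 119 and 148, 182 and 170.5 FPKM (log2 change 0.40 ± 0.26, adjusted p = 0.597). ITGA3 and LAMB3 overlapped after the GC correction, and ITGB1 and COL17A1 did not. In miR-186 clones at week 29, 0 of the 9 had an unadjusted p under 0.05 beside 2.19% of all genes, and 1 of 9 did not overlap beside 5.62% of all genes. That gene was ITGB1, at 195, 239 and 215 FPKM without iAs and 183, 191 and 179 FPKM with it (log2 change -0.23 ± 0.14, adjusted p = 0.999). ITGB1 was thus lower with iAs without overlap in 3 of 4 dose comparisons, and called in 1 of them. With GC content taken out it was lower without overlap in 2 of them, both at week 12, with -0.24 ± 0.11 (adjusted p = 0.485) in miR-186 clones at that week and -0.13 ± 0.11 (adjusted p = 1) at week 29.

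The effect of iAs on LAMA5 in vector clones was smaller at week 29 than at week 12 by 1.32 ± 0.45, but this difference did not pass (adjusted p = 0.656). The iAs effect on LAMA5 at week 12 differed between miR-186 and vector clones by -1.20 ± 0.45 (adjusted p = 0.977). None of the 9 genes passed in any of the 6 differences between effects, in which 0% of all genes tested were called. Between 0 and 3 of the 9 had an unadjusted p under 0.05 in each, beside 1.91% to 13.4% of all genes.

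Between constructs at week 12, COL17A1, LAMA3 and LAMB3 had lower means in miR-186 clones. Without iAs both laminin chains overlapped between constructs, and none of the 9 genes passed limma's threshold at either dose before the GC correction. Without iAs, COL17A1 stood at 204, 209 and 199 FPKM in vector clones and 134, 125 and 119 FPKM in miR-186 clones. The groups were far apart relative to their SDs, and the log2 change was -0.69 ± 0.26 (adjusted p = 0.139). After the GC correction it was -0.79 ± 0.23 and passed (adjusted p = 0.0493), 1 of 9 beside 684 of 14208 genes. Without the correction 0 of 9 passed, beside 3.44% of all genes. LAMA3 stood at 347, 147 and 314 FPKM in vector clones and 113, 109 and 237 FPKM in miR-186 clones. Replicate 2 of the vector and replicate 3 of the miR-186 libraries lay inside the other group's range, and the log2 change was -0.82 ± 0.31 (adjusted p = 0.148). Without the first of these libraries it was -1.20 ± 0.30 (adjusted p = 0.0456), and without the second -1.18 ± 0.30 (adjusted p = 0.0405). Leaving out a library that lies toward the other group enlarges the change, and no other single omission made LAMA3 pass. LAMB3 stood at 199, 145 and 248 and 143, 147 and 142 FPKM (log2 change -0.42 ± 0.30, adjusted p = 0.453). ITGB1, COL17A1 and LAMA5 did not overlap between constructs, 3 of 9 beside 27.6% of all genes. LAMA5 was on the other side, at 23.1 ± 2.86 FPKM in miR-186 and 13.1 ± 4.3 FPKM in vector clones (log2 change 0.85 ± 0.32, adjusted p = 0.141). On the GC-corrected scale LAMA5 changed by 0.42 ± 0.20 (adjusted p = 0.241), LAMA5 and ITGB1 overlapped, and LAMB3, at -0.62 ± 0.25 (adjusted p = 0.163), and ITGA3 did not. Of the 9 genes 5 had an unadjusted p under 0.05, beside 20.1% of all genes, and the median of the 9, as a log2 change, was -0.33, against -0.03 for all genes. The simple epithelial keratins summed to 1149 to 1395 FPKM in miR-186 and 832 to 993 FPKM in vector clones, and the part of this difference was not tested.

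With iAs at week 12, COL17A1 and LAMB3 were lower in miR-186 clones without overlap, and LAMA3 overlapped. COL17A1 stood at 249, 280.0 and 292 FPKM in vector and 148, 182 and 170.5 FPKM in miR-186 clones (log2 change -0.72 ± 0.26, adjusted p = 0.176). LAMB3 stood at 259.5, 242 and 376 and 151, 168 and 176 FPKM (log2 change -0.80 ± 0.30, adjusted p = 0.209). LAMA5 did not overlap either, at 37 ± 2.14 against 28.9 ± 3.02 FPKM (log2 change -0.35 ± 0.32, adjusted p = 0.652). These were 3 of 9 beside 18.3% of all genes, and 0 of 9 were called by limma beside 2.02%, with 2 of 9 at an unadjusted p under 0.05 beside 14.5%. The median of the 9 was -0.35, against -0.04 for all genes. After the GC correction the COL17A1 and LAMB3 changes were -0.61 ± 0.23 and -0.67 ± 0.25 (adjusted p = 0.145 and 0.156), and LAMA5 changed by -0.15 ± 0.20 (adjusted p = 0.722) and overlapped. COL17A1, LAMB3 and ITGA2, the last higher in miR-186 clones, did not overlap after it. The basal markers moved with COL17A1 and LAMB3, at 1702 to 2732 FPKM in miR-186 and 2840 to 4578 FPKM in vector clones, and their part was not tested.

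COL17A1 overlapped between the constructs at week 29 at both doses. In miR-186 clones it stood at 206, 106 and 170.4 FPKM without iAs and 129.9, 141 and 283 FPKM with it. LAMB3 stood there at 197, 85.3 and 179 and 133, 165 and 277 FPKM. Replicate 2 at 0 nM was the lowest of all 24 libraries for both genes, whereas replicate 3 at 100 nM was among the highest for both. Without iAs the log2 changes against vector were -0.41 ± 0.26 for COL17A1 and -0.68 ± 0.30 for LAMB3 (adjusted p = 0.389 and 0.222), and with iAs -0.38 ± 0.26 and -0.37 ± 0.30 (adjusted p = 0.517 and 0.612). By limma 0 of 9 were called without iAs beside 2.86% of all genes, with 4 of 9 at an unadjusted p under 0.05 beside 19.9%. With iAs 0 of 9 were called beside 0.864%, with 1 of 9 at an unadjusted p under 0.05 beside 14.5%. ITGB1, ITGA2, LAMB3 and LAMA5 did not overlap without iAs, 4 of 9 beside 28% of all genes. ITGB1 and ITGA3 did not overlap with iAs, 2 of 9 beside 15.4%. LAMA5 stood at 23.3, 19.6 and 12.9 FPKM in vector and 9.91, 9.23 and 8.83 FPKM in miR-186 clones without iAs (log2 change -0.92 ± 0.32, adjusted p = 0.113). With iAs it stood at 24.7, 34.9 and 10.3 and 8.1, 11.6 and 12.1 FPKM (log2 change -0.96 ± 0.32, adjusted p = 0.153). Replicate 3 of the vector libraries there lay among the miR-186 libraries, and without it the change was -1.45 ± 0.26 (adjusted p = 0.0105). Leaving out such a library enlarges the change, and no other single omission made LAMA5 pass there. GC-corrected, the LAMA5 changes were -0.41 ± 0.20, still without overlap, at 0 nM and -0.49 ± 0.20 at 100 nM (adjusted p = 0.267 and 0.227). Those of LAMB3 were -0.40 ± 0.25 and -0.11 ± 0.25 (adjusted p = 0.399 and 0.891), with overlap at both doses, and ITGB1, ITGA2 and ITGA3 also overlapped at the doses where they had not. ITGA6, lower in miR-186 clones, did not overlap at 0 nM after the correction, with nearest log2 levels of 7.09 and 7.07. The medians of the 9 were -0.16 without and -0.27 with iAs, against 0.02 and 0.00 for all genes. The basal markers were lower in miR-186 clones at both doses of week 29 without overlap, at 1145 to 1445 against 2369 to 3291 FPKM without iAs and 954 to 1894 against 2148 to 3698 FPKM with it, and their part was not tested.

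The gene level of DST, whose epithelial form is the plaque protein beside COL17A1, went the other way, and its forms were not told apart. It rose in miR-186 against vector clones by 0.99 ± 0.17 with iAs at week 12 (114 ± 12.6 against 57.1 ± 7.79 FPKM, adjusted p = 0.00329) and by 0.64 ± 0.17 without iAs at week 29 (adjusted p = 0.0465). Its log2 changes were 0.62 ± 0.17 without iAs at week 12 (adjusted p = 0.0502) and 0.59 ± 0.17 with iAs at week 29 (adjusted p = 0.105). The libraries of the 2 constructs did not overlap in any of these 4 comparisons, before or after the GC correction. Before it, 27.6% and 18.3% of all genes did not overlap at week 12 without and with iAs, and 28% and 15.4% at week 29. At week 29 the nearest corrected log2 levels of DST in miR-186 and vector clones were 6.3304 and 6.3258 without iAs. With iAs they were 6.3358 and 6.3075. After that correction DST passed in both week 12 comparisons (0.79 ± 0.18, adjusted p = 0.0161, and 1.02 ± 0.18, adjusted p = 0.0038) and in neither at week 29.

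Between week 12 and week 29, LAMA5 fell in miR-186 clones at both doses. Its unexposed libraries were at 26.2, 22.7 and 20.5 FPKM in week 12 and 9.91, 9.23 and 8.83 FPKM in week 29, and it fell by 1.26 ± 0.32 (adjusted p = 0.0363). With iAs it stood at 25.5, 31.4 and 29.8 FPKM and 8.1, 11.6 and 12.1 FPKM, and fell by 1.42 ± 0.32 (adjusted p = 0.0127). All 6 libraries of week 29 were below all 6 of week 12. This was 1 of 9 genes at each dose, beside 2.9% of all genes without iAs and 12.2% with it, and the medians of the 9 were 0.17 and 0.15, against 0.06 and 0.02 for all genes. Both groups of week 29 had negative mean GC slopes and both of week 12 positive ones. The slopes of weeks 12 and 29 did not overlap without iAs (-0.090 to 0.143 and -0.317 to -0.190). Nor did they with it (0.104 to 0.369 and -0.369 to 0.047). After the GC correction the changes were -0.50 ± 0.20 (adjusted p = 0.183) and -0.66 ± 0.20 (adjusted p = 0.0598), with no overlap at either dose. With iAs the replicate numbers were taken to pair the libraries of the 2 weeks, from correlations in these data and not from the labels. With the number as a block and the GC correction together LAMA5 passed (adjusted p = 0.0281 by limma). So did LAMB3 in the other direction (0.59 ± 0.19, adjusted p = 0.0496), a gene whose r with the GC slope within miR-186 clones was 0.20. Without block or correction LAMB3 changed by 0.15 ± 0.30 (adjusted p = 0.759). With both, 1941 of 14208 genes passed. The block also joined same-numbered libraries across doses, where the numbers were not taken as a pairing in these clones (r = -0.296, 0.588 and -0.0409 at week 12). Without iAs the LAMA5 call of the main fit was lost on leaving out any 1 of 5 of the 6 libraries (adjusted p = 0.0652 to 0.165) and held without replicate 3 of week 12. With iAs it was lost without replicate 2 of week 12 (adjusted p = 0.093) and without replicate 1 of week 29 (adjusted p = 0.0611). Summed basal keratinocyte markers, all 6 of them measured and none at 0, went from 1764 to 4195 FPKM at week 12 to 1145 to 1445 FPKM at week 29 without iAs. With iAs they went from 1702 to 2732 FPKM to 954 to 1894 FPKM, and the weeks overlapped. The simple epithelial keratins went from 1149 to 1395 FPKM to 750.0 to 868 FPKM without iAs, and from 1043 to 1195 FPKM to 751 to 1041 FPKM with it. The part of either in the LAMA5 result was not tested. ADRM1 changed by -0.81 ± 0.43 without iAs and -0.53 ± 0.43 with it (adjusted p = 0.244 and 0.4).

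ITGB4 stood beside LAMA5 in these comparisons but was not called. In miR-186 clones it changed by -0.75 ± 0.37 without iAs (adjusted p = 0.214) and by -0.95 ± 0.37 with it (adjusted p = 0.0878), without overlap at either dose. The GC-corrected changes were -0.12 ± 0.16, with overlap, and -0.30 ± 0.16, without. Without iAs, ITGA2, ITGB4 and LAMA5 did not overlap between the weeks, 3 of 9 beside 30.7% of all genes. With iAs, ITGB1, ITGA2, ITGA3, ITGB4 and LAMA5 did not, 5 of 9 beside 33%. ITGA2 was higher at week 29 at both doses, by 0.48 ± 0.18 and 0.34 ± 0.18 (adjusted p = 0.122 and 0.199). Corrected for GC these were 0.25 ± 0.16 and 0.04 ± 0.16 (adjusted p = 0.401 and 0.896), and the weeks overlapped at both doses, as did those of ITGB1 and ITGA3 with iAs. ITGA3 without iAs and LAMB3 with it did not overlap after the correction, both higher at week 29.

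In vector clones no gene of the 9 was called by limma between the weeks, beside 0.907% of all genes without iAs and 0.183% with it. An unadjusted p under 0.05 was seen in 1 of 9 without iAs and 2 of 9 with it, beside 9.48% and 14.5% of all genes. ITGB1 alone did not overlap without iAs, at 238, 226 and 238 FPKM at week 12 and 149.8, 189 and 182 FPKM at week 29 (log2 change -0.44 ± 0.14, adjusted p = 0.188), 1 of 9 beside 18.2% of all genes. ITGA2 and LAMA5 did not overlap with iAs, 2 of 9 beside 16.9%. ITGA2 stood there at 51.2, 44.6 and 39.4 FPKM at week 12 and 64.1, 59 and 69.1 FPKM at week 29 (log2 change 0.51 ± 0.18, adjusted p = 0.238). With the GC correction LAMA5 overlapped there, while ITGA2 and ITGB1 did not, ITGB1 being lower at week 29. Without iAs, ITGB1 and LAMA5 did not overlap after the correction, ITGB1 lower and LAMA5 higher at week 29. The nearest LAMA5 values of the weeks were then 4.26 and 4.28 on the corrected log2 scale. For LAMA5 the change between weeks differed between miR-186 and vector clones by -1.77 ± 0.45 without iAs (adjusted p = 0.296) and by -0.60 ± 0.45 with it (adjusted p = 1), so the fall was not shown to differ between the constructs.

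**Figure D3:**
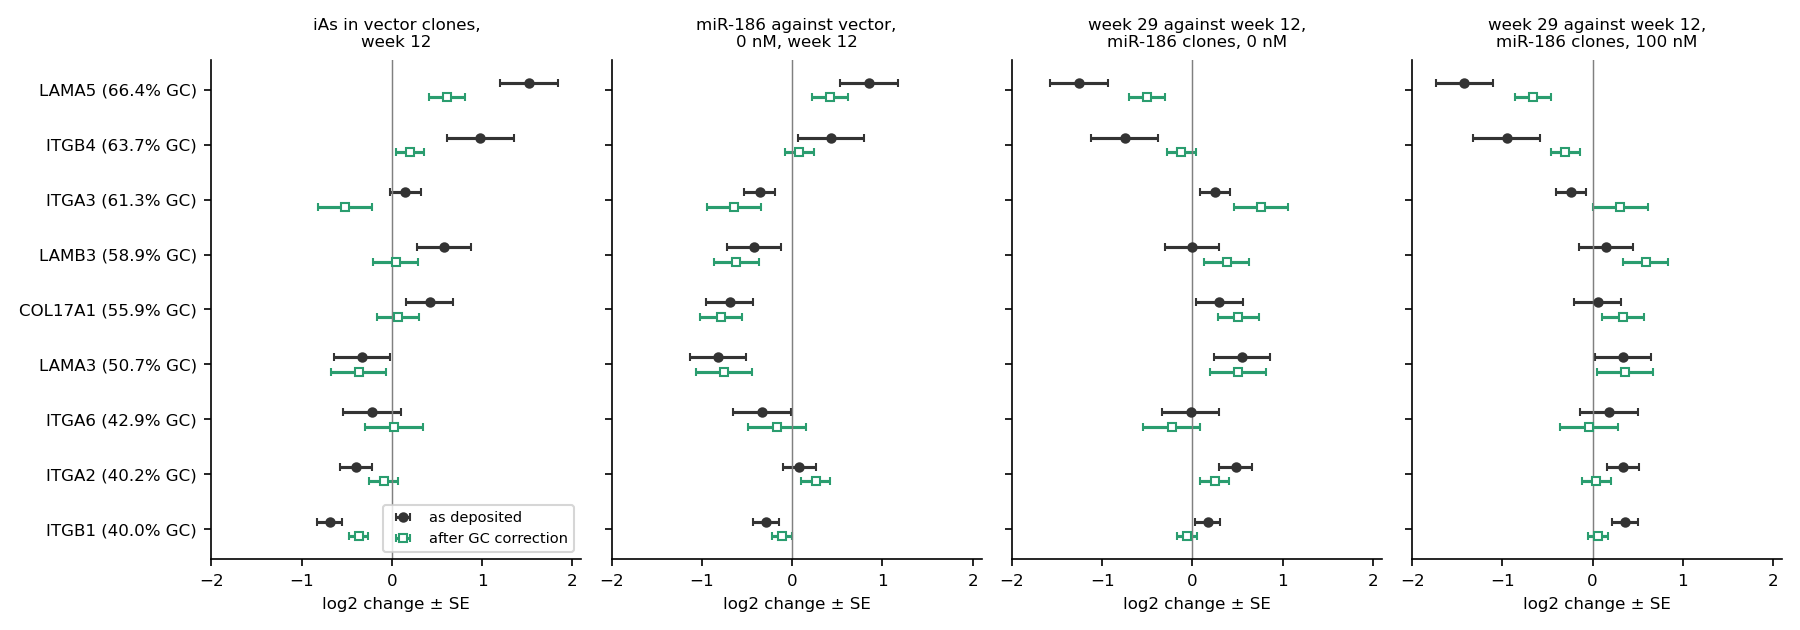
Log2 change ± SE (horizontal axis) of the 9 genes, ordered by transcript GC content (vertical axis), in 4 comparisons. Black circles are the values as deposited and green squares those after the GC correction. LAMA5 moves from 1.52 to 0.61 in the first panel and from -1.42 to -0.66 in the last, while COL17A1 stays at -0.69 and -0.79 in the second.

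Of the 36 pairs among the 9 genes, 9 had an absolute Pearson r of 0.5 or more over the 24 libraries, and 2 did after the GC correction. These values are a description, since libraries share clones, groups and depth. The pair that kept the highest r was COL17A1 with LAMB3, at 0.86 before and 0.83 after the correction (Spearman's rho 0.83 and 0.65). The libraries fell into clusters, so the r within each construct is given too. Over the 12 miR-186 libraries it was 0.92 before and 0.92 after the correction. Over the 12 vector libraries it was 0.60 before and -0.42 after, so the relation over all libraries did not hold within vector clones once GC content was taken out. LAMA3 with LAMB3 had an r of 0.34 before and 0.59 after the correction, and after it 0.61 within miR-186 and 0.49 within vector clones. ITGB4 with LAMA5 had 0.91 before and 0.49 after, and ITGB1 with LAMA5 -0.71 and -0.27. The partner chains ITGA6 and ITGB4 had -0.16 and 0.34, and ITGB1 had 0.52 and 0.00 with ITGA2. DST, outside the 9, had -0.70 and -0.67 with COL17A1.

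**Figure D4:**
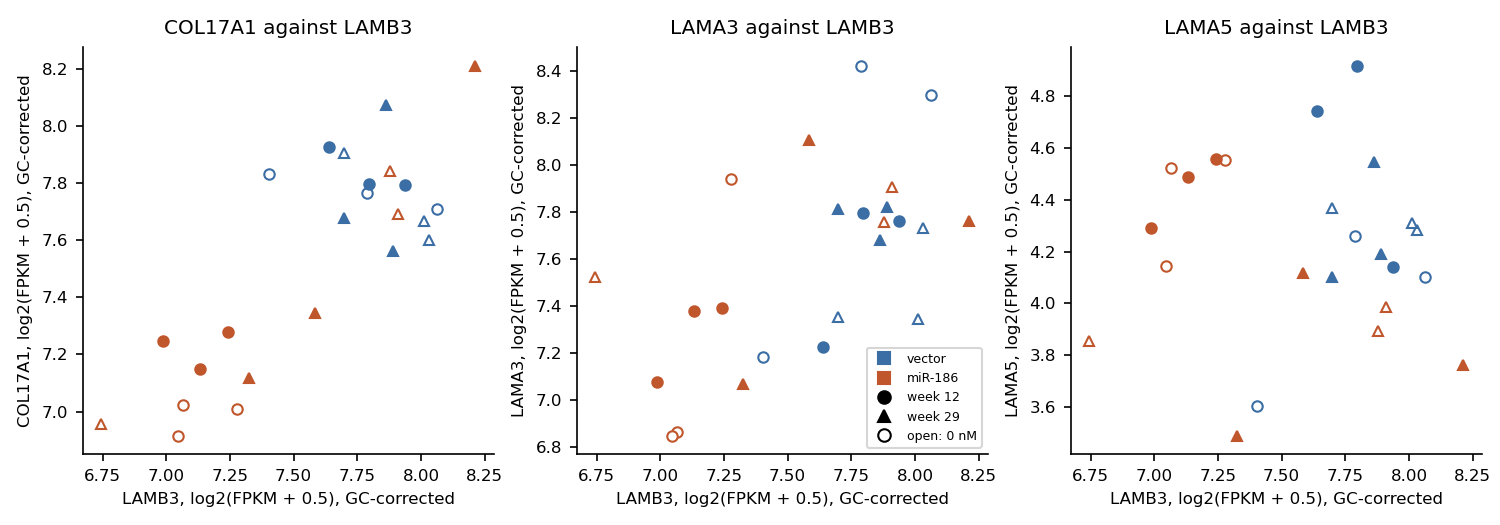
COL17A1, LAMA3 and LAMA5 (vertical axes) against LAMB3 (horizontal axis), all log2(FPKM + 0.5) after the GC correction. Each of the 24 points is a library, blue for vector, orange for miR-186, circles for week 12, triangles for week 29, open for 0 nM. The 6 miR-186 libraries of week 12 lie at the lower left for COL17A1, LAMA3 is more scattered (r = 0.59), and LAMA5 shows no such alignment (r = -0.03).

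COL17A1 and LAMB3 varied together in miR-186 clones, and the promoters of the 9 genes were searched for TGANTCA, where N is any base. Its forms TGACTCA and TGAGTCA are the letters bound by AP-1 factors, and the motif reads the same on both strands. RefSeq promoters, from 250 bases before to 50 after each start, were found for 7 of the 9 genes, 11 promoters in all. The motif was in 2 of them, and 7.71% of all 35116 promoters of this length hold it, with any base at N. Positions are GRCh38.p14, and capitals mark the motif.
LAMA3 promoter (chr18:23872770-23873069, plus strand): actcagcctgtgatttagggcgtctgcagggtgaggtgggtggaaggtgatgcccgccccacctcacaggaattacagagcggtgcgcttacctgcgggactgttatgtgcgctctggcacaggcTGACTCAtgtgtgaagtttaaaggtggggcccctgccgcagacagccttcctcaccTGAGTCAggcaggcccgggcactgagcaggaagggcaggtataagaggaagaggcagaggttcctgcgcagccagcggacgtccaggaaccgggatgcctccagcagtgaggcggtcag
LAMB3 promoter 3 (chr1:209651325-209651624, minus strand): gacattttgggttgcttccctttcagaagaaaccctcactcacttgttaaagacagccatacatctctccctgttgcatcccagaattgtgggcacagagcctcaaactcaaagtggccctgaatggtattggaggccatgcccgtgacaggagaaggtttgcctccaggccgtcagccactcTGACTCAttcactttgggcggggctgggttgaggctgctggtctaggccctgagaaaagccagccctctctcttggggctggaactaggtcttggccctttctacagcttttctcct
COL17A1 promoter (chr10:104085831-104086130, minus strand): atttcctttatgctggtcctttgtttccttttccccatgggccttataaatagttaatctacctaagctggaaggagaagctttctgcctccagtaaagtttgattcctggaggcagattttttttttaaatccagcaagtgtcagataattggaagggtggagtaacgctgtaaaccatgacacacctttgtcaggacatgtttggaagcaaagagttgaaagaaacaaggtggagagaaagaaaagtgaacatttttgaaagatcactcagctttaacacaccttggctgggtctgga
The LAMA3 window holds 2 matches, at 125 and 69 bases before the start, and window 3 of LAMB3 holds 1, at 67 bases before it. The other LAMB3 windows and that of COL17A1 do not contain these letters. For DST, outside the 9, window 1 holds 1 match, at 25 bases after the start, and windows 2 and 3 hold none. The LAMA3 window lies inside the gene, downstream of the first annotated position, 23689443. The coding sequence of LAMA3 counted above was not matched to the start in this window. A match is a description of sequence only.

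The proportions of the laminin chains varied between groups. LAMB3 stood at a median of 1.18 of LAMA3, from 0.476 to 1.66. In vector clones at week 12 this ratio was 0.572, 0.986 and 0.79 without iAs and 1.13, 1.57 and 1.66 with it, without overlap (0.783 ± 0.207 and 1.46 ± 0.282). At week 29 the doses overlapped, at 1.3 ± 0.06 and 1.12 ± 0.347. LAMB3 is 58.9% GC and LAMA3 50.7%, and on the log2 scale after the GC correction the difference LAMB3 minus LAMA3 at week 12 was -0.64, 0.22 and -0.23 without iAs and 0.00, 0.41 and 0.18 with it. The doses then overlapped, and the shift between their means was 0.41, against 0.91 before the correction. LAMA5 stood at a median of 0.0979 of LAMA3, from 0.0299 to 0.232, without a GC correction. The libraries at these ends had GC slopes of -0.369 and 0.0823.

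For each of the 9 genes, the 3 genes with the highest r over the 24 libraries were sought outside the lists used here, among genes averaging 5 FPKM or more, as a description. For LAMA5 they were LTBR, PTPRF and PTK7 (r = 0.95, 0.94 and 0.93), and for ITGB4 RHOT2, FSCN1 and CTDSP1 (r = 0.97, 0.96 and 0.96). For ITGB1 they were VPS35, FRS2 and DDX18 (r = 0.92, 0.92 and 0.91), and for ITGA2 ATP13A3, RPS10-NUDT3 and EML4 (r = 0.92, 0.89 and 0.88). The first set lies between 55.1% and 65.8% GC and the second between 36.9% and 44.3%. For LAMB3 they were CES2, LAMP1 and RIN3 (r = 0.93, 0.90 and 0.89), and for COL17A1 ANAPC15, CES2 and NRSN2 (r = 0.86, 0.85 and 0.85), so CES2 was shared. For LAMA3 they were ARHGEF26, APBB2 and GSK3B (r = 0.82, 0.81 and 0.79). For ITGA6 they were HMCES, GOLIM4 and NCOA3 (r = 0.90, 0.89 and 0.87), and for ITGA3 TLE5, NMNAT1 and CHKB (r = 0.82, 0.75 and 0.74). After the GC correction GOLIM4 was still among the 3 for ITGA6, FRS2 for ITGB1, CES2 for LAMB3, NRSN2 for COL17A1, ARHGEF26 for LAMA3, PTK7 for LAMA5, and ATP13A3 and RPS10-NUDT3 for ITGA2, and none of the 3 for ITGB4 or ITGA3.

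The wider adhesion pathway was followed through 8 lists of 82 genes, of which 63 were measured. By limma 0 of the 63 were called in any of the 4 dose comparisons, also in vector clones at week 12. Between constructs 0 rose and 2 fell without iAs at week 12, and 1 rose and 2 fell with it, which is 3.17% and 4.76% of the 63 beside 3.44% and 2.02% of all genes. At week 29, 2 rose and 4 fell without iAs, and 0 rose and 3 fell with it, 9.52% and 4.76% beside 2.86% and 0.864%. Between weeks in vector clones 0 rose and 2 fell without iAs, 3.17% beside 0.907%, and 0 of 63 were called with it, beside 0.183%. In miR-186 clones 0 rose and 2 fell without iAs, 3.17% beside 2.9%, and 2 rose and 8 fell with it, which is 15.9% of the 63 beside 12.2% of all genes.

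Among basement membrane and anchoring fibril genes (11 of 12 measured), FRAS1, whose protein anchors the basement membrane in development, fell in miR-186 clones in all 4 comparisons between constructs. With iAs at week 12 it stood at 0.731 ± 0.0735 FPKM in miR-186 and 5.37 ± 0.462 FPKM in vector clones, and fell by 2.25 ± 0.28 (adjusted p = 0.000161). COL7A1 (the anchoring fibril collagen), HSPG2 (perlecan) and AGRN (agrin) fell between weeks in miR-186 clones with iAs (log2 changes -1.54 ± 0.49, -1.19 ± 0.27 and -1.62 ± 0.37, adjusted p = 0.0453, 0.013 and 0.014), where the list median was -0.34 and that of all genes 0.02. All 3 are above 64% GC, and none passed after the GC correction. Of the integrin adhesion complex (19 of 19 measured), FERMT2, a kindlin that activates integrins, fell in miR-186 clones at week 12 by 1.77 ± 0.27 without iAs and 1.18 ± 0.27 with it (adjusted p = 0.000855 and 0.0264). It also fell from week 12 to week 29 in vector clones without iAs, by 1.25 ± 0.27 (adjusted p = 0.0266). TNS4, a tensin of focal adhesions, fell between weeks in miR-186 clones from 72 ± 31 to 21 ± 2.59 FPKM without iAs and from 57.5 ± 19.5 to 12.6 ± 1.77 FPKM with it (adjusted p = 0.0227 and 0.00408), and TNS3 fell with iAs by 0.84 ± 0.19 (adjusted p = 0.0126). All calls of FRAS1, FERMT2, TNS3 and TNS4 held after the GC correction.

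Of the hemidesmosome plaque and partners (5 of 5 measured), besides DST, the keratin KRT5 fell in miR-186 against vector clones at week 29, from 1165 ± 155 to 468 ± 100.4 FPKM without iAs and from 1289 ± 218 to 475 ± 188 FPKM with it (adjusted p = 0.0106 and 0.00641), also after the GC correction. PLEC, CD151 and KRT14 were not called in any comparison. Of the 4 other laminin chains measured among 8, LAMB2 fell between weeks in miR-186 clones with iAs, by 0.99 ± 0.24 (adjusted p = 0.0175), which did not hold after the GC correction (adjusted p = 0.254). Of the 10 other integrin subunits measured among 21, ITGAE alone was called, with a rise of 0.66 ± 0.20 in that comparison (adjusted p = 0.0381). Of the 4 other laminin receptors, dystroglycan (DAG1) fell between weeks in miR-186 clones by 0.81 ± 0.15 without iAs and 1.00 ± 0.15 with it (adjusted p = 0.00839 and 0.00137), also after the correction. SDC1, a syndecan, fell in miR-186 against vector clones at week 29 by 0.76 ± 0.20 without iAs and 0.86 ± 0.20 with it (adjusted p = 0.0415 and 0.0391), but not after the correction. Of the 4 matrix ligands measured among 6, THBS1 (thrombospondin) rose by 1.27 ± 0.29 and ECM1 fell by 1.96 ± 0.46 in miR-186 against vector clones without iAs at week 29 (adjusted p = 0.023 and 0.0254), and THBS1 fell between weeks in vector clones without iAs by 1.23 ± 0.29 (adjusted p = 0.042). After the correction THBS1 and ECM1 passed between constructs (adjusted p = 0.0307 and 0.0221), and THBS1 between weeks did not (adjusted p = 0.0544). Of the 6 proteases measured among 7, ADAM9 rose by 0.70 ± 0.19 and BMP1, which processes laminin chains, fell by 0.90 ± 0.28 between weeks in miR-186 clones with iAs (adjusted p = 0.0259 and 0.0411), and neither passed after the correction.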

How the data were processed

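mRNA libraries of 24 HaCaT samples were made with a stranded kit, per the labels' protocols. The authors aligned reads with STAR 2.6.0c and made the deposited FPKM with Cuffdiff 2.2.1, per the submitters' processing notes, which name hg38 (GRCh38). The annotation release, strand setting and any scaling between libraries are not given in the sources used here. Symbols were matched for 57740 of 58381 gene IDs. Genes averaging 0.5 FPKM or more were fitted as log2(FPKM + 0.5) with limma 3.58.1 (R 4.3.3), with intensity trend and robust moderation, tested on simulated data. Of 18 comparisons, 12 set a group against another and 6 were differences between effects. On this scale changes of low genes are understated. The GC correction removed, per library, a natural spline (5 degrees of freedom) on GC content of the longest GENCODE 29 transcript, using genes above 1.5 FPKM. Absolute depth is unknown without counts. Relative depth, from the smallest FPKM steps, ran from 0.825 to 1.08, and its precision was not measured beyond the spread between libraries.

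The 9 genes, the lists and the tests were chosen with earlier results of these data known. Named are the 9 genes, PLEC, DST and CD151 in all groups, called members of the lists (up to 4 a list by p), and the 3 genes most like each of the 9. ADRM1 was added after the data were seen, as it overlaps LAMA5. The GC-corrected difference of LAMB3 and LAMA3 was also added then. A gene of the lists is not reported here. Other settings tried were pseudocounts of 0.1 and 1, all genes unfiltered, a 2 FPKM minimum mean, median-of-ratios scaling, the GC correction, a fit on only the groups compared, the replicate number as a block, and leaving out each library. Replicate numbers were taken to pair libraries where same-numbered deviations from group means correlated above 0.1 for every number, which is a hint of the data, since the labels tie no numbers together. In the comparison of weeks in miR-186 clones with iAs these were 0.341, 0.413 and 0.385. The numbers also exceeded it for iAs in vector clones at week 29, for constructs without iAs at week 29 and for weeks in vector clones without iAs. The constructs have different clonal lines, so between them a number cannot stand for the same clone. The block joined same-numbered libraries of a construct over both doses and weeks, or of both constructs in comparisons between them.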

Additional observations from a re-analysis of the deposited data

How the results depend on the processing

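The number of the 9 genes called by limma was recomputed under each alternative. For iAs in vector clones at week 12 it went from 2 to 0 with no filter, with the GC correction, in the fit on only the groups compared, and with the replicate block and GC correction together, and it was 0 to 0 over the fits without 1 library. LAMA5 and ITGB1 kept their direction in all 15 alternatives, with adjusted p from 0.0274 to 0.195 and from 0.0266 to 0.172, and 5 of 15 past the threshold for each. For miR-186 against vector without iAs at week 12 it went from 0 to 1 with the GC correction (COL17A1), with the replicate block (LAMA3, -0.82 ± 0.23, adjusted p = 0.0435) and with both (COL17A1), and was 0 to 1 without 1 library. Of all genes 684, 1002 and 1160 were called in these settings, against 490 in the main fit. The numbers were not taken as a pairing there. For miR-186 against vector with iAs at week 12 the count was 1 with the replicate block and GC correction together (LAMB3, adjusted p = 0.0477), beside 819 of all genes. The numbers were not taken as a pairing there either. At week 29 with iAs the count was 0 to 1 without 1 library. For week 29 against week 12 in miR-186 clones without iAs it went from 1 to 0 with no filter, with the GC correction, and with the replicate block and GC correction, and was 0 to 1 without 1 library. With iAs it went from 1 to 0 with the GC correction and to 2 with the replicate block and GC correction, and was 0 to 2 without 1 library, where ITGB1 was the added gene (0.47 ± 0.14, adjusted p = 0.0432, without replicate 3 of week 12). Counts of the 9 in the other comparisons were 0 under every alternative. The replicate block alone left 2, 1 and 1 called where the main counts were 2, 1 and 1. No call reversed. Why these values moved was not tested, except that the fits on only the groups compared and without 1 library use fewer libraries.

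Over all genes tested (14228, or 31357 with no filter and 14208 with the GC correction), calls for iAs in vector clones at week 12 numbered 197, against 0 with no filter, 8 with the GC correction and 1428 with the replicate block. In the 4 comparisons between constructs they ran from 13 in a fit on only the groups compared to 1160 with the block and GC correction, around 123 to 490, and in those between weeks from 0 to 3194, around 26 to 1732. Without read counts, no counting error could be given.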
